A study of Homo sapiens with 42 samples.

Results

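This report follows how human lung fibroblasts responded to bleomycin while the coatomer subunit COPB2 was depleted. The comparison was made of the 16 libraries of IMR90 cells, out of 42 in the series, that carried 1 of 2 shRNAs against COPB2: 8 libraries of bleomycin-treated cells against 8 of DMSO-treated cells. IMR90 is an established strain of human fetal lung fibroblasts, here without the oncogene construct of the other libraries. The cells were exposed to bleomycin at 50 µg/ml for 24 h or to DMSO and kept in culture for 7 days. Doxycycline at 1 µg/ml was then added to induce the hairpin, and RNA was taken 72 h later, at day 10. The 4 groups were DMSO with COPB2 shRNA 1, DMSO with COPB2 shRNA 2, bleomycin with COPB2 shRNA 1 and bleomycin with COPB2 shRNA 2, with 4 replicates in each. The 4 bleomycin-treated and 4 DMSO-treated IMR90 libraries with the control shRNA were used only to show where the response differed. The hairpin was expressed from a single doxycycline-inducible vector, and all 24 IMR90 cultures, controls included, received doxycycline. The study's supplement counts its n for this experiment in independent experiments, fewer than the 4 replicates per group used here. The labels do not say which libraries it counted, or which came from separate cultures. The p-values therefore measure the spread between these libraries.

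Bleomycin breaks DNA. Damaged fibroblasts stabilise p53, which raises the cyclin-dependent kinase inhibitor p21 (encoded by CDKN1A) and stops division, and cells that stay arrested become senescent. Senescent cells lose lamin B1 from the nuclear envelope and secrete cytokines, chemokines and proteases, a mixture called the SASP (senescence-associated secretory phenotype). COPB2 is a subunit of the COPI coat, whose vesicles carry proteins back out of the Golgi into the endoplasmic reticulum (ER). When unfolded proteins build up in the ER, the sensors PERK, ATF6 and IRE1 start the unfolded protein response (UPR), acting through the transcription factors ATF4, ATF6 and XBP1, and HERPUD1 is an ER membrane protein that this response raises.

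The hairpins define what was depleted, so their guide strands are shown first, as DNA letters 5′ to 3′ with the seed (bases 2 to 8) in capitals.
COPB2 shRNA 1: tTAAATATctttacaatgctgt
COPB2 shRNA 2: tAATTGAAcactctaatctgca
Both guides matched COPB2 over their full length of 22 bases and lay in coding exons. The site of shRNA 1 is in exon 11 of 22 of transcript ENST00000503326 (GRCh37, chr3:139088345-139088366, minus strand), and that of shRNA 2 is in exon 4 (chr3:139097987-139098008). They matched 11 and 15 of the 18 annotated COPB2 transcripts, and the guides hold 22.7% and 31.8% G and C. The seeds, TAAATAT and AATTGAA, differ.

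Expression is given as CPM, the count of a gene relative to its library's total after TMM scaling (the total multiplied by a factor from 0.842 to 1.07 that evens out composition), and differences as log2 fold changes, bleomycin against DMSO, averaged over both shRNAs unless said otherwise. A gene was called where the adjusted p was under 0.05. Total counts were 15580424 to 19409645 in the bleomycin libraries and 16199276 to 23597310 in the DMSO libraries, and with the TMM factors a floor of 3 counts lies between 0.121 and 0.205 CPM. The first principal component of the 24 IMR90 libraries held 55.1% of the variance and separated bleomycin from DMSO. The second held 21.8% and followed how strongly a library's counts depended on the GC content of genes (r = 0.98 over 24 libraries). The third (5.66%) set the bleomycin libraries of replicate 4 apart from the rest. Results that rest on replicate 4 are therefore given with and without it, or with 1 of its libraries left out.

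COPB2 (ENSG00000184432) was depleted in every library labelled with its shRNA. Its level was 335 to 566 CPM in the 8 control-shRNA libraries and 47.6 to 126 CPM in the 16 COPB2-shRNA libraries, with no overlap (log2 fold change -2.46, adjusted p 2.23e-13, SE 0.10). In DMSO the levels were 47.6, 48.9, 72.9 and 50.2 CPM with shRNA 1 and 69.2, 56.1, 84.5 and 61.5 CPM with shRNA 2. After bleomycin they were 89.2, 106, 119 and 94.9 CPM and 91.7, 86.2, 126 and 103 CPM. Every bleomycin library thus stood above every DMSO library. The target itself rose with bleomycin by a log2 fold change of 0.74 (adjusted p 2.31e-05, SE 0.12), and 15.6% of the control-shRNA level remained in DMSO against 21.2% after bleomycin. Without replicate 4 the log2 fold change was 0.75 (adjusted p 0.00149). With the control shRNA it was 0.28 (adjusted p 0.222), and the difference of 0.46 (95% interval 0.02 to 0.89, unadjusted edgeR p 0.0392) was not called.

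The bleomycin response of COPB2-depleted cells was wide. Out of 14783 genes, 7794 (52.7%) passed the test, 4029 (27.3%) upwards and 3765 (25.5%) downwards, and 2977 of these changed by a log2 fold change of at least 1 (1597 higher, 1380 lower). In 3045 genes (20.6%) the 8 bleomycin and the 8 DMSO libraries did not overlap, in equal shares of 10.3% upwards and downwards. Without replicate 4, 6372 genes were called. The median log2 fold change over all genes was 0.01.

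Each hairpin alone gave a wide response. With shRNA 1, 5203 genes (35.2%) were called, and with shRNA 2, 5915 genes (40%). Both called 4271 genes, which is 82.1% of those of shRNA 1 and 72.2% of those of shRNA 2, and 4270 of them moved the same way. Across genes the responses to bleomycin had a Pearson r of 0.93 and a Spearman rho of 0.88, over genes that are not independent of each other. A test of the difference between the hairpins called 0 genes by edgeR (smallest adjusted p 0.968) and 0 by DESeq2, and the unadjusted p was under 0.05 for 209 (1.41%) and 233 genes. Chance alone would give 739 such genes, so small p-values were fewer than that, and the reason was not tested. The 95% interval of that difference lay within a log2 fold change of 1 on either side of 0 for 49.4% of genes.

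The response with the control shRNA, measured in other libraries, called 4614 genes (31.2%), from 4 against 4 libraries and so with less power than the 8 against 8 above. Of these, 4489 were also called with the COPB2 shRNAs (97.3% of the control list and 57.6% of the COPB2 list), 2214 higher and 2275 lower in both, and 0 in opposite directions. A test of the difference between the COPB2 and the control responses called 0 genes by edgeR (smallest adjusted p 1.00) and 0 by DESeq2, and the unadjusted p was under 0.05 for 154 (1.04%) and 168 genes. Here too this is fewer than the 739 genes that chance alone would give, for a reason that was not tested. The median 95% interval reached 0.62 on the log2 scale to either side, and for 66.4% of genes the whole interval lay within 1 of 0. For the other genes a difference of over 1 lay within the interval, so the absence of calls does not show that the responses were alike.

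**Figure D1:**
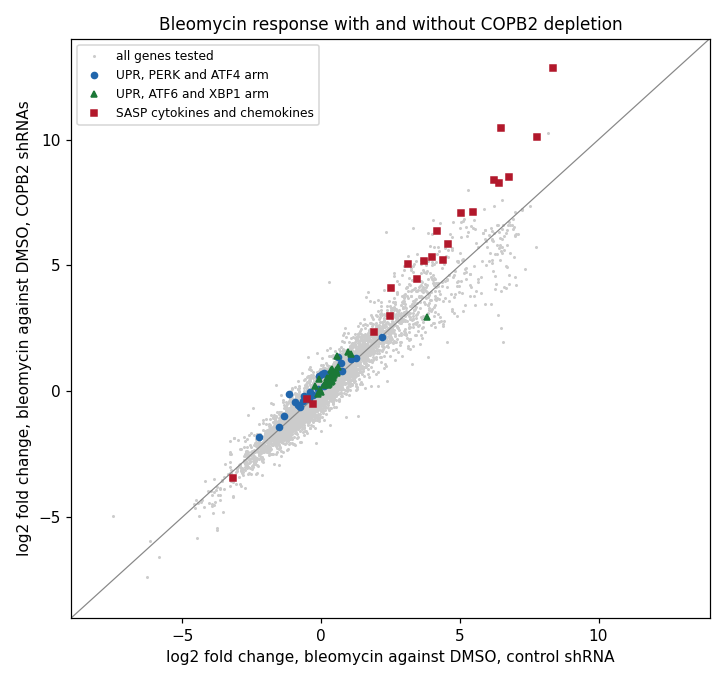
Log2 fold change of bleomycin against DMSO with the control shRNA (horizontal axis) and with the COPB2 shRNAs (vertical axis) for the 14783 genes tested, with 3 gene lists coloured and the line of equal response. Genes spread along the line (Pearson r 0.96), and the SASP cytokines reach the highest values on both axes.

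CDKN1A (ENSG00000124762; GRCh37, chr6:36644237-36655114), which encodes p21, rose 6.67-fold. In DMSO it stood at 715, 354, 412 and 374 CPM with shRNA 1 and at 890, 414, 482 and 447 CPM with shRNA 2. After bleomycin it stood at 3719, 3187, 3065 and 2218 CPM and at 4731, 4751, 3027 and 2622 CPM. Replicate 1 was the highest DMSO library of each hairpin, and still lay far under the lowest bleomycin library. The log2 fold change was 2.74 (adjusted p 4.85e-09, SE 0.24) and 2.81 without replicate 4. With the control shRNA it was 2.58, and the difference of 0.16 had a 95% interval of -0.65 to 0.97.

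LMNB1 (ENSG00000113368; chr5:126112315-126172712), which encodes lamin B1, fell by 2.55 on the log2 scale (adjusted p 3.89e-10, SE 0.19). Its DMSO levels were 9.36, 10.7, 13.8 and 11.5 CPM with shRNA 1 and 7.69, 9.81, 12.4 and 9.24 CPM with shRNA 2. After bleomycin they were 1.90, 2.01, 1.75 and 2.34 CPM and 1.25, 1.23, 1.71 and 2.24 CPM. All 8 bleomycin libraries lay under all 8 DMSO libraries, and without replicate 4 the fall was -2.67. The control shRNA gave -2.53, a difference of -0.02 (95% interval -0.65 to 0.61).

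**Figure D2:**
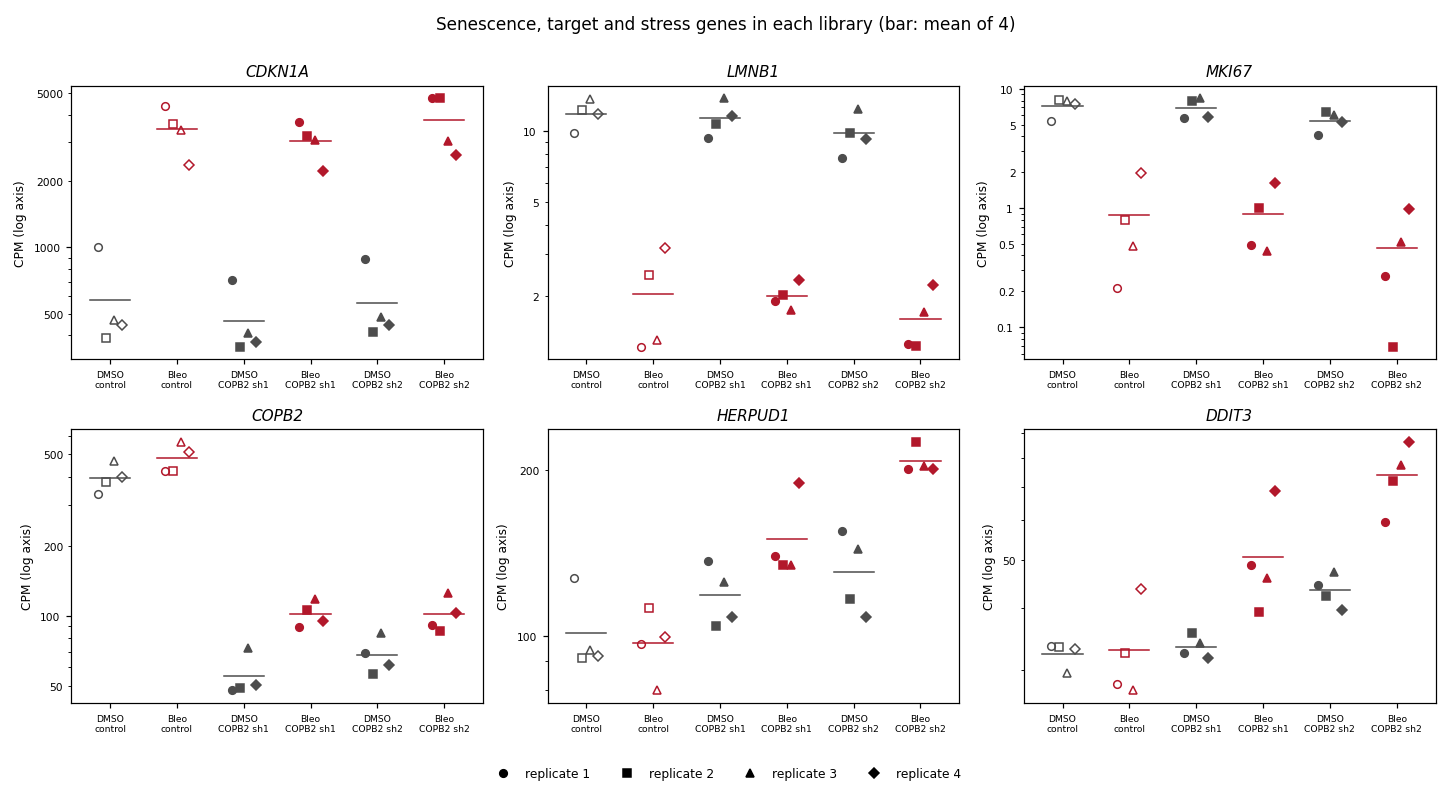
CPM of 6 genes on log axes in the 24 IMR90 libraries, by treatment and shRNA, with replicate numbers as marker shapes, open markers for the control shRNA and a bar at the mean of 4. CDKN1A rises and LMNB1 and MKI67 fall in all 3 shRNA groups, COPB2 is low in the COPB2-shRNA groups, and HERPUD1 and DDIT3 have bleomycin means above the DMSO means of the same COPB2 shRNA (for HERPUD1 150 against 119 CPM with shRNA 1 and 208 against 131 CPM with shRNA 2).

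Other targets of p53 rose with CDKN1A. Of 31 listed targets, 26 rose and 0 fell, where 27.3% of all genes tested rose and 25.5% fell, and the median log2 fold change was 0.90 against 0.01 for all genes. With the control shRNA 23 rose (15.4% of all genes), with a median of 0.93, and without replicate 4 the COPB2-shRNA count was 24. FAS, a death receptor, went from 20.4 to 35.8 CPM (median 22.1) in DMSO to 43.1 to 124 CPM (median 102) after bleomycin, a log2 fold change of 1.86 (SE 0.22). PLK3, a stress kinase, rose by 1.81, FDXR, a mitochondrial ferredoxin reductase, by 1.74 and TIGAR, a fructose bisphosphatase, by 1.41, all with no overlap of libraries. MDM2, the ubiquitin ligase that degrades p53, rose by 1.38 with overlapping ranges. BBC3, ZMAT3, CCNG1, PPM1D and TP53INP1 did not pass the test, with log2 fold changes from -0.13 to 0.21.

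The 7 inhibitors of cyclin-dependent kinases split. CDKN2B, which encodes p15, rose by 1.60 (SE 0.19) from 17.2 to 28.3 CPM in DMSO to 36.7 to 96.6 CPM after bleomycin, without overlap. CDKN2D rose by 0.45. CDKN1B (p27) fell from 60.3 to 93.1 CPM to 24.4 to 38.4 CPM, and CDKN1C (p57) and CDKN2C (p18) fell by 1.08 and 2.23 on the log2 scale, each without overlap of libraries. CDKN2A, which encodes p16 and ARF, stood at 53.6 to 103 CPM in DMSO and 46.5 to 136 CPM after bleomycin, with a log2 fold change of 0.00 (adjusted p 0.99, SE 0.18). Its sign changed with the settings of the fit, and the gene symbol does not tell p16 and ARF transcripts apart.

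Genes of cell division fell. Of 30 mitosis genes 25 fell and 2 rose (25.5% and 27.3% of all genes), with a median of -1.52, and the control shRNA gave 23 and 1 with a median of -1.90. MKI67, the marker of cycling cells, stood at 5.73, 7.97, 8.40 and 5.82 CPM in DMSO with shRNA 1 and at 4.08, 6.38, 6.04 and 5.26 CPM with shRNA 2. The bleomycin libraries held 0.489, 1.01, 0.437 and 1.63 CPM and at 0.271, 0.0682, 0.514 and 0.988 CPM. The groups did not overlap, and replicate 4 was the highest bleomycin library of each hairpin. The log2 fold change was -3.22 (adjusted p 1.74e-07, SE 0.36), and -3.82 without replicate 4. CDK1, the mitotic kinase, fell by 2.86, KIF20A, a kinesin of cytokinesis, by 2.42, DLGAP5, a spindle protein, by 2.43 and BIRC5, which encodes survivin, by 2.33. AURKA and PTTG1 were the members that rose. AURKA, the centrosomal Aurora kinase, went from 9.22 to 16.5 CPM in DMSO to 19.8 to 38 CPM (log2 fold change 1.34, SE 0.13), without overlap, and PTTG1, securin, rose by 0.50 with overlap.

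More DNA replication genes fell than rose. Of 30 listed, 16 fell, against 25.5% of all genes, and 7 rose, a share under the 27.3% of all genes, with a median of -0.52. TK1, thymidine kinase, fell by 2.2, GINS2, of the replicative helicase, by 1.70 and RRM2, a subunit of ribonucleotide reductase, by 1.62. TYMS, thymidylate synthase, rose by 1.56, from 13.9 to 23.8 CPM in DMSO to 48.5 to 63.0 CPM. PCNA, the sliding clamp and also a p53 target, rose by 1.22, from 49.8 to 64.8 CPM to 107 to 181 CPM. Both rose without overlap of libraries.

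Promoters of mitotic genes are known to carry the cell cycle homology region (CHR), whose core is TTTGAA. It was sought in the 250 bases before the RefSeq start of each gene (GRCh38.p14), on both strands, and was found in 12 of the 24 mitosis genes with a promoter entry, against 8.60% of the promoters of all genes tested and 13.6% of all promoters. The list was made of known cell cycle genes, so this is a description only. Windows of 60 bases show the motif in capitals, from the promoters of CDK1 (chr10:60778143-60778202, plus strand) and DLGAP5 (chr14:55191691-55191750, minus strand).
CDK1: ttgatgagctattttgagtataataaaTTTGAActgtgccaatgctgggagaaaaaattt
DLGAP5: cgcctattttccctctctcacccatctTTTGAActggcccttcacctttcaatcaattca

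The nuclear lamina and HMG chromatin list of 16 had 8 genes lower (25.5% of all genes were) and 4 higher, a share close to the 27.3% of all genes, with a median of -0.34. Besides LMNB1, EZH2, the Polycomb methyltransferase, fell by 1.33, HMGB2, a chromatin protein, by 1.22, TMPO, which encodes LAP2, by 0.95 and LBR, the lamin B receptor, by 0.90. HMGA2 rose by 1.61, from 51.4 to 91.2 CPM to 105 to 311 CPM, and HMGA1 rose by 1.42, from 228 to 419 CPM to 436 to 1395 CPM. HMGA proteins are architectural components of senescent heterochromatin. Neither overlapped between treatments.

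The highest fold changes were taken by rule. By the rule for named genes (called, at least 100 counts on average in the higher treatment, no overlap of libraries), 945 genes were eligible upwards. The leading 10 were CSF3, CCL20, MMP3, CXCL8, CXCL3, CXCL5, CXCL1, IL13RA2, IL1B and KYNU. All but MMP3, IL13RA2 and KYNU are on the list of SASP cytokines and chemokines, and MMP3 is on that of SASP proteases. DESeq2, the alternative test, gave no adjusted p to CSF3, CXCL8, CXCL3, CXCL5, CXCL1 and IL13RA2. CSF3, granulocyte colony-stimulating factor, had 0 counts in all 8 DMSO libraries and 9867 counts over the 8 bleomycin libraries, at least 3501-fold higher with the floor of 3 counts set over the DMSO group. CCL20, a chemokine, had 1 count in DMSO and 2893 after bleomycin, a ratio of 3080 with a 95% counting interval from 552 to 121687. The counting interval holds no spread between libraries. Most of these counts came from replicate 4: CSF3 stood at 404 CPM in replicate 4 of shRNA 1 and 90.6 CPM in that of shRNA 2, and at 0.164 to 6.13 CPM in the other 6 bleomycin libraries. CCL20 stood at 104 and 35.5 CPM in the same libraries and at 0.341 to 3.63 CPM in the other 6. The log2 fold changes were 12.83 for CSF3 and 10.46 for CCL20 over all libraries. With bleomycin replicate 4 of shRNA 1 left out they were 9.21 and 7.95, and the lowest over the alternative fits were 7.65 and 7.67.

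CXCL8, which encodes interleukin 8, shows the same split. Its DMSO level was 0.721 to 3.35 CPM. After bleomycin it was 90.9, 82.5, 42.7 and 9383 CPM with shRNA 1 and 239, 62.8, 230 and 4669 CPM with shRNA 2. All bleomycin libraries were above all DMSO libraries, and replicate 4 of each hairpin was the highest by far. Its log2 fold change was 10.10 (adjusted p 4.33e-06, SE 1.44) over all libraries and 6.11 (adjusted p 9.51e-08, SE 0.47) without replicate 4. Replicate 4 was also the highest bleomycin library with the control shRNA, at 1219 CPM against 39.6 to 107 CPM. What set replicate 4 apart was not tested.

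**Figure D3:**
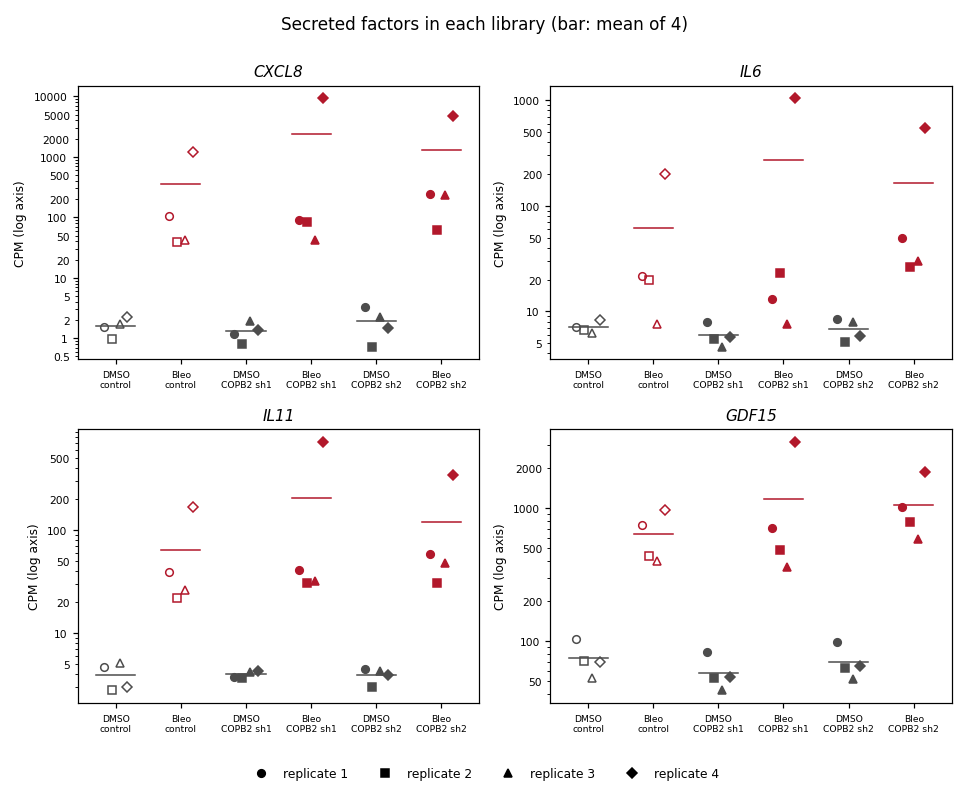
CPM of CXCL8, IL6, IL11 and GDF15 on log axes in the 24 IMR90 libraries, by treatment and shRNA, with replicate numbers as marker shapes and a bar at the mean of 4. Diamonds (replicate 4) stand above the other bleomycin libraries, most of all for CXCL8 (9383 CPM with shRNA 1), while DMSO libraries of all replicates lie together.

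Of 23 SASP cytokines and chemokines, 21 had enough counts to be tested, and CCL8 and IL7 did not. Of those tested 18 rose and 2 fell (27.3% and 25.5% of all genes), with a median log2 fold change of 5.32 over all libraries and 2.58 without replicate 4, where 18 still rose. The median was IL11's and is unchanged with CSF3 at its bound. In control-shRNA cells 12 rose, with a median of 4.18 (2.41 without replicate 4), and each COPB2 shRNA alone, also 4 against 4 libraries, gave 18. IL6 stood at 7.96, 5.46, 4.61 and 5.71 CPM in DMSO with shRNA 1 and 8.55, 5.10, 7.99 and 5.87 CPM with shRNA 2. In bleomycin-treated cells the levels were 13.1, 23.2, 7.60 and 1049 CPM and at 49.2, 26.5, 30.1 and 551 CPM. The ranges overlapped, since replicate 3 of shRNA 1 lay within the DMSO range. The log2 fold change of IL6 was 5.05 (adjusted p 0.000187, SE 0.99), and 1.82 (adjusted p 0.000138, SE 0.30) without replicate 4.

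The chemokines CXCL3, CXCL5 and CXCL1, which attract neutrophils, moved in the same way, at 8.53, 8.40 and 8.29 over all libraries and at 3.63, 2.91 and 3.89 without replicate 4. CXCL1, CXCL2 and CXCL3 are near copies of each other, and how reads shared between them were counted is not given in the sources used here, so their separate values are uncertain. IL1B, the inflammasome cytokine, rose by 7.11 (4.65 without replicate 4) and IL1A by 5.84 (3.91). IL11 rose by 5.32 (SE 0.74) and by 3.39 without replicate 4, from 2.99 to 4.47 CPM in DMSO to 30.7 to 728 CPM. LIF, a cytokine of the IL6 family, rose by 3.01 (2.31 without replicate 4). CSF2 had 2 counts in DMSO and 444 after bleomycin, a ratio of 236 (counting interval 65.0 to 1958). Its log2 fold change was 7.10 over all libraries and 5.64 with bleomycin replicate 4 of shRNA 1 left out. Over the alternative fits it was 6.14 to 7.43. CXCL12, a chemokine of resting stroma, fell by 3.44 (SE 0.20) from 78.0 to 125 CPM to 6.22 to 13.2 CPM, without overlap. CSF1 fell by 0.50, and was not called without replicate 4 (log2 fold change -0.43, adjusted p 0.0655). IL15 did not pass the test (-0.30). IL13RA2, the decoy receptor of interleukin 13, rose by 7.24 and KYNU, kynureninase of tryptophan breakdown, by 6.80, and without replicate 4 by 4.46 and 5.84.

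NF-kappa B is the known activator of many of these genes. Its motif, spelled GGGA, any 1 base and TTTCC and sought on both strands, was in the 250 bases before the start of 6 of 17 SASP cytokine genes with an entry (IL6, CXCL1, CXCL2, CXCL3, CXCL5 and CXCL6), against 0.543% of the promoters of genes tested. The list holds known targets, so the share is a description. The windows of CXCL1 (chr4:73869289-73869348, plus strand, GRCh38.p14) and CXCL3 (chr4:74038734-74038793, minus strand) show the motif in capitals and how alike these neighbouring genes are.
CXCL1: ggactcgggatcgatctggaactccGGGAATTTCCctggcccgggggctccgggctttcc
CXCL3: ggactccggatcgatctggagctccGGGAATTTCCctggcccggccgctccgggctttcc

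Proteases, their inhibitors and growth factors of the SASP rose with less weight on replicate 4. Of 36 listed genes 27 rose and 4 fell (27.3% and 25.5% of all genes), with a median of 1.87 (1.76 without replicate 4), and the control shRNA gave 24 and 3 with a median of 1.58. MMP3, stromelysin, stood at 0 to 0.443 CPM in DMSO. The levels after bleomycin were 28.1, 11.6, 12.1 and 1077 CPM with shRNA 1 and 47.0, 12.2, 35.4 and 206 CPM with shRNA 2. Its log2 fold change was 10.25 (SE 1.25) and 7.83 without replicate 4. MMP1, interstitial collagenase, rose from 5.46 to 15 CPM in DMSO to 251 to 2521 CPM, a log2 fold change of 6.33 (SE 0.47) and 5.77 without replicate 4. SERPINE2 rose by 3.47 (SE 0.19) and SERPINB2 by 6.50 (SE 0.54), both without overlap. With bleomycin replicate 4 of shRNA 1 left out they rose by 3.33 and 5.73, and at the lowest of the alternative fits by 3.22 and 5.35. The ligands of the EGF receptor AREG and EREG rose by 5.45 and 4.34, and 3.12 and 3.63 without replicate 4. MMP2, gelatinase A, fell by 1.84 (SE 0.12), from 1576 to 2319 CPM to 460 to 636 CPM, and MMP14, which activates it, fell by 0.58. TIMP2 and IGFBP5 were the others that fell.

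GDF15, a stress cytokine and a p53 target, stood at 83.4, 53, 42.8 and 53.9 CPM in DMSO with shRNA 1 and 99.2, 63.5, 52.1 and 65.8 CPM with shRNA 2. After bleomycin it stood at 711, 483, 360 and 3168 CPM and 1025, 788, 585 and 1857 CPM. Groups did not overlap, and replicate 4 was again the highest of each hairpin. The log2 fold change was 4.13 (adjusted p 2.38e-08, SE 0.40) and 3.33 without replicate 4.

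ADH1B and WNT2 had the lowest fold changes. Of 1237 genes eligible downwards by the same rule, the leading 10 were ADH1B, WNT2, FGF10, FMO2, SCN7A, PTGDS, TOX, PTGIS, CPXM1 and MIAT, with log2 fold changes from -7.38 to -4.47. Of these, ADH1B, WNT2, FGF10 and FMO2 are on the list of lung mesenchyme identity, and the others are on no list used here. ADH1B, an alcohol dehydrogenase, stood at 48.7, 54.8, 83.5 and 69.6 CPM in DMSO with shRNA 1 and 70.9, 87.7, 106 and 105 CPM with shRNA 2. The bleomycin libraries held 0.489, 1.06, 0.0546 and 0.306 CPM and 0.271, 0.341, 0.228 and 0.884 CPM. WNT2, a ligand of lung development, went from 67.7 to 91.7 CPM in DMSO to 0.306 to 1.57 CPM (log2 fold change -6.56, adjusted p 9.33e-13, SE 0.32). FGF10, the growth factor of lung branching, fell by 5.95, from 10.3 to 25.3 CPM to 0.056 to 0.611 CPM. FMO2, a flavin monooxygenase, fell by 5.83, and PTGDS and PTGIS, prostaglandin D2 and prostacyclin synthases, by 4.62 and 4.53. Without replicate 4 the same 10 genes ran from -7.53 for ADH1B to -4.30 for MIAT, so their fall did not depend on it.

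**Figure D4:**
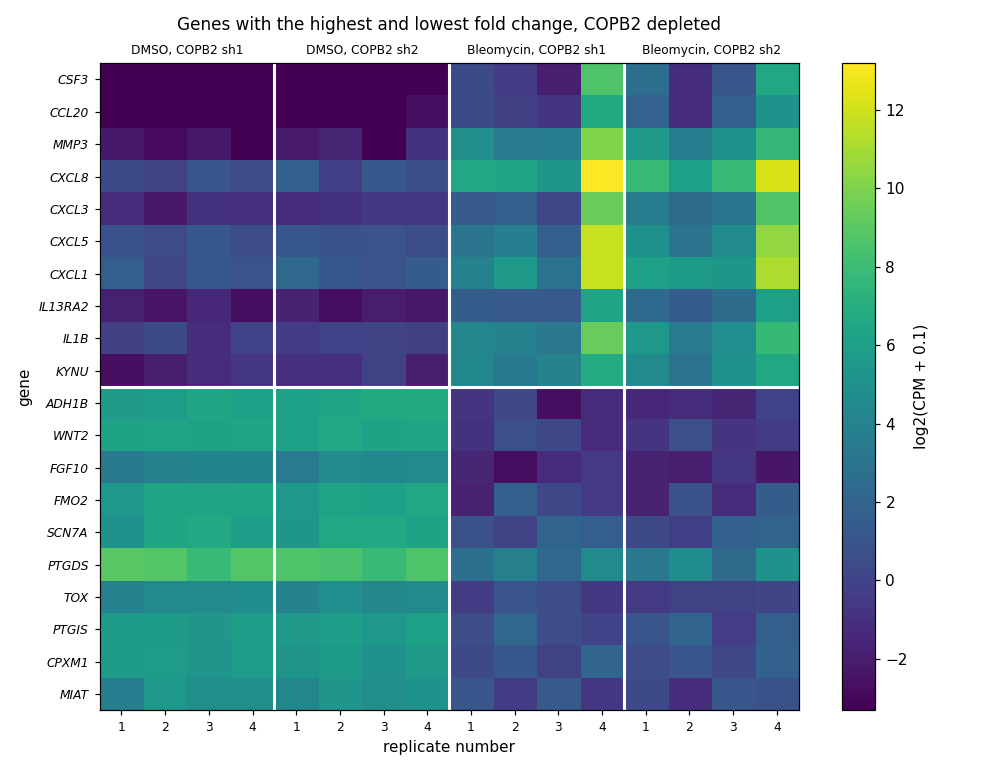
Log2 of CPM plus 0.1 (colour) in the 16 COPB2-shRNA libraries (columns, by group and replicate number) for the 10 genes with the highest and the 10 with the lowest fold change (rows). The upper genes are darker in DMSO than after bleomycin, though not all are near the floor there (CXCL8 at 0.721 to 3.35 CPM). They are brightest in replicate 4 of both bleomycin groups, and the lower genes are dark in all 8 bleomycin libraries.

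Over 21 genes of lung mesenchyme identity, 19 were tested, of which 11 fell and 1 rose (25.5% and 27.3% of all genes), with a median of -1.10. Beyond those named above, BMP4, a growth factor, fell by 2.42 (158 to 175 CPM in DMSO, 16 to 48.6 CPM after bleomycin), and the transcription factors TBX4 and TBX5 fell by 1.30 and 1.10. HHIP, an inhibitor of hedgehog, rose by 1.70. In control-shRNA cells 9 fell and 1 rose, with a median of -0.66.

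Matrix genes fell as well. Of 29 collagens and elastic fibre genes 28 were tested, of which 21 fell and 4 rose (25.5% and 27.3% of all genes), with a median of -1.16, against 20 and 1 with the control shRNA (median -1.06). COL15A1 fell by 4.33 (SE 0.14), from 61.2 to 95.7 CPM to 3.11 to 5.08 CPM, ELN, elastin, by 4.30, FBLN1, fibulin 1, by 4.11 and MFAP4, a microfibril protein, by 4.10. COL3A1 fell by 2.68, from 3234 to 4376 CPM to 302 to 1163 CPM, and COL1A1 by 1.05 with overlapping ranges. COL7A1, LOX, COL8A1 and COL4A1 rose by 1.40, 0.86, 0.56 and 0.41. COL7A1 and COL4A1 were not called without replicate 4 (adjusted p 0.0547 and 0.181). Of 12 contractile genes 5 fell and 1 rose, against 25.5% and 27.3% of all genes, with a median of -0.43. Without replicate 4, 3 fell and 1 rose (median -0.21), and the control shRNA gave 4 and 1 (median -0.53). DES, desmin, fell by 4.45 and ACTA2, smooth muscle actin, by 0.77 (adjusted p 0.0671 without replicate 4), and SMTN, smoothelin, rose by 1.44.

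The ATF6 and XBP1 targets of the UPR rose after bleomycin while COPB2 was low. Of 33 listed genes 24 rose and 0 fell, against 27.3% and 25.5% of all genes, with a median of 0.54 against 0.01 for all genes, and 17 rose without replicate 4 (median 0.42). Compared at 4 against 4 libraries, 14 rose with shRNA 1 (median 0.51, 17.4% of all genes), 18 with shRNA 2 (0.61, 21.7%) and 5 with the control shRNA (0.36, 15.4%), and 0 fell with any of them. HERPUD1 (ENSG00000051108; GRCh37, chr16:56966054-56978776) stood at 137, 104, 125 and 108 CPM in DMSO with shRNA 1 and 155, 117, 144 and 108 CPM with shRNA 2. In bleomycin-treated cells the levels were 140, 135, 135 and 190 CPM and 201, 225, 204 and 201 CPM. With shRNA 2 the treatments did not overlap, and with shRNA 1 replicates 2 and 3 lay within the DMSO range. The log2 fold change was 0.50 (adjusted p 0.000526, SE 0.11), 0.33 with shRNA 1 (adjusted p 0.0965) and 0.67 with shRNA 2 (adjusted p 0.00159), and 0.41 (adjusted p 0.0208) without replicate 4.

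With the control shRNA HERPUD1 stood at 128, 91.4, 94.4 and 92.1 CPM in DMSO and 96.7, 112, 79.7 and 99.7 CPM after bleomycin, a log2 fold change of -0.06 (adjusted p 0.809). The difference between the responses was 0.56 (95% interval 0.17 to 0.95, unadjusted edgeR p 0.00675), which did not pass adjustment over all genes (adjusted p 1.00).

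HSPA5, which encodes the chaperone BiP, stood at 828, 677, 811 and 666 CPM in DMSO with shRNA 1 and 871, 752, 1001 and 685 CPM with shRNA 2. The levels after bleomycin were 1048, 1225, 1077 and 1934 CPM and 1323, 1501, 1776 and 1852 CPM, with no overlap. Its log2 fold change was 0.89 (adjusted p 1.04e-05, SE 0.14), and 0.71 without replicate 4. SDF2L1, an ER cofactor of BiP, rose by 1.41 (SE 0.21) from 13.9 to 24.7 CPM to 28.2 to 97.6 CPM. DNAJB9, another BiP cofactor, rose by 1.55, ERN1, which encodes the sensor IRE1, by 1.49 and HYOU1, an ER chaperone, by 0.85. DERL3, of ER-associated degradation, rose by 2.97 at a low level of at most 2.60 CPM. XBP1 itself did not pass the test (0.23, adjusted p 0.177), and ATF6 rose by 0.28. Counts per gene do not tell spliced from unspliced XBP1.

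The ER stress elements are the known binding sites of ATF6 and XBP1. The first, ERSE, spelled CCAAT, any 9 bases and CCACG, was found in the promoters of 6 of the 29 genes of this list with an entry (HSPA5, HSP90B1, CALR, CRELD2, XBP1 and ERO1B) against 0.123% of promoters of genes tested. The second, ERSE-II, spelled ATTGG, any 1 base and CCACG, was found in 3 (HERPUD1, SDF2L1 and HYOU1) against 0.0876%. Both strands were searched, and both elements hold the letters CCAAT (or ATTGG) and CCACG. The list holds known targets, so the shares describe it and no more. The elements are in capitals in windows from HERPUD1 (chr16:56932000-56932059, plus strand, GRCh38.p14), SDF2L1 (chr22:21642089-21642148, plus strand, with the element on the opposite strand) and HSPA5 (chr9:125241388-125241447, minus strand).
HERPUD1: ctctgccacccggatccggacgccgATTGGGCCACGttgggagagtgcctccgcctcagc
SDF2L1: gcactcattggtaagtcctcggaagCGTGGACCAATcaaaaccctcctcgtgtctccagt
HSPA5: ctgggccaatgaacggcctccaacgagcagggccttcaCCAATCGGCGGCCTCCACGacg

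The ATF4 arm moved in both directions. Of 27 listed genes 12 rose, against 27.3% of all genes, and 5 fell, a share under the 25.5% of all genes, with a median of 0.10. At 4 against 4 libraries, 10 rose and 4 fell with shRNA 1, where 17.4% and 17.8% of all genes did. With shRNA 2 the counts were 10 and 3 (21.7% and 18.3% of all genes). With the control shRNA they were 6 and 6 (15.4% and 15.8%), with a list median of -0.10. The falls with either COPB2 shRNA were shares under those of all genes. DDIT3, which encodes the transcription factor CHOP, stood at 32.4, 35.5, 34 and 31.8 CPM in DMSO with shRNA 1 and 44.5, 42.2, 47.2 and 39.5 CPM with shRNA 2. After bleomycin it stood at 48.9, 39.2, 45.9 and 68.8 CPM and 59.5, 71.9, 77.5 and 86.4 CPM. Within each hairpin the treatments did not overlap, although they did when the hairpins were pooled. Its log2 fold change was 0.68 (adjusted p 3.86e-05, SE 0.12), 0.55 without replicate 4 (adjusted p 0.000866) and 0.02 with the control shRNA (adjusted p 0.936). SLC7A11, the cystine transporter, rose by 2.15, CTH, of cysteine synthesis, by 1.36, ATF3 by 1.30, CHAC1, which degrades glutathione, by 1.12 and PPP1R15A, which encodes GADD34, by 0.71. TRIB3, a pseudokinase, rose by 0.62, and was not called without replicate 4 (adjusted p 0.17). PHGDH, of serine synthesis, fell by 1.81, JDP2 by 1.43 and NUPR1 by 0.97. ATF4 mRNA did not pass the test (-0.20, adjusted p 0.142), and fell with the control shRNA (-0.63, adjusted p 0.00483).

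Set side by side, the UPR genes stood mostly higher in the COPB2-depleted response than in the control response. The difference was positive for 26 of 27 genes of the ATF4 arm (median 0.30) and 30 of 33 of the ATF6 and XBP1 arm (median 0.18), against 55.2% of all genes tested (median 0.03). Without replicate 4 these counts were again 26 and 30, with medians of 0.27 and 0.15, and without replicate 1 they were 24 and 27, with medians of 0.16 and 0.20. No single gene was called. Differences at an unadjusted edgeR p under 0.05 were found for 4 of 27 genes, DDIT3 (0.66, 95% interval 0.24 to 1.08), CTH (0.75), PPP1R15A (0.46) and ATF4 (0.43), and for 2 of 33, HERPUD1 and SDF2L1 (0.85), against 1.04% of all genes. Genes of a list share regulators and are not independent, so the counts describe the lists and were given no test. For comparison, the difference was positive in 17 of 31 p53 targets (median 0.01) and in 19 of 21 SASP cytokines (median 1.57, and 0.50 without replicate 4). It was also mostly positive in 30 of 36 SASP proteases and growth factors (median 0.22) and 34 of 42 trafficking genes (0.10). The same held for 22 of 30 mitosis genes (0.18) and 12 of 14 BCL2 family genes (0.13). It was positive in 7 of 28 matrix, 7 of 19 lung mesenchyme and 12 of 25 interferon genes. All these differences share the same control-shRNA libraries.

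**Figure D5:**
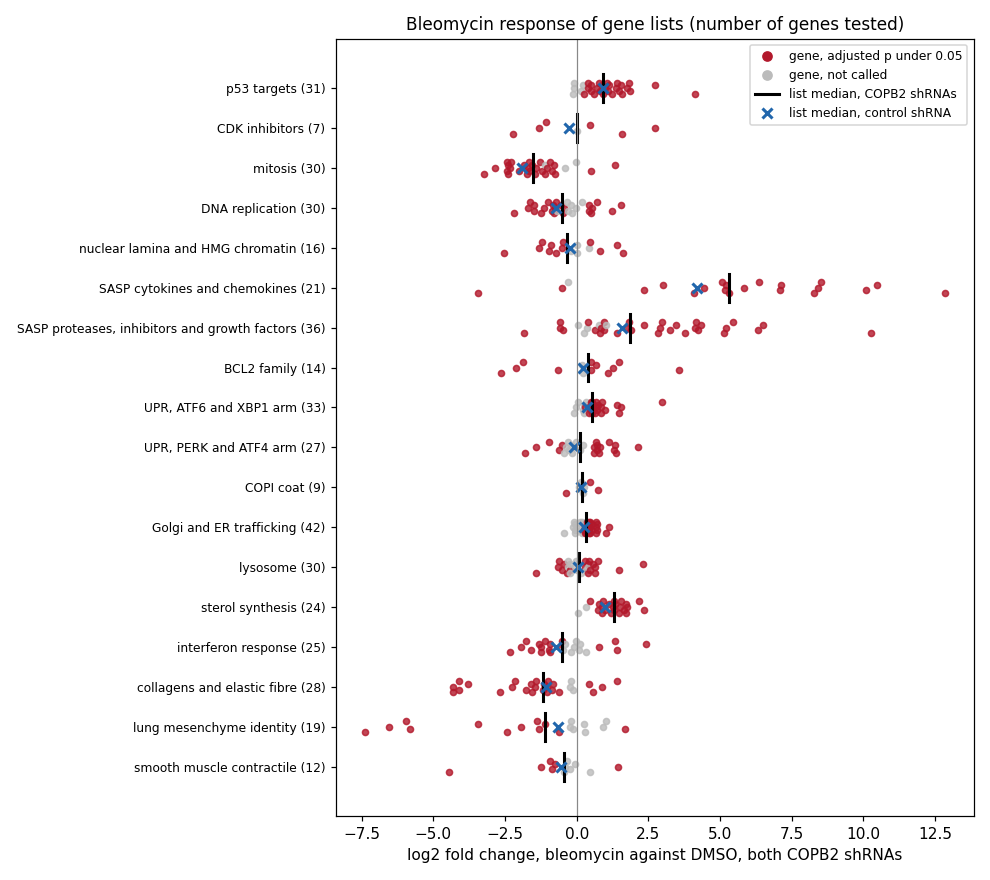
Log2 fold change of bleomycin against DMSO with both COPB2 shRNAs (horizontal axis) for the tested genes of 18 lists, red where called and grey where not, with the list median as a black bar and its median with the control shRNA as a blue cross. The p53, SASP, sterol and UPR (ATF6 and XBP1) medians lie above 0, the mitosis, collagen and lung mesenchyme medians lie below it, and black bars and blue crosses fall on the same side of 0 in the lists whose median differs from 0 by over 0.4 on the log2 scale.

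Genes of sterol synthesis rose together. Of 24 listed 22 rose and 0 fell (27.3% and 25.5% of all genes), with a median of 1.29 (also 1.29 and 22 genes without replicate 4). Each COPB2 shRNA alone gave 20, and the control shRNA 18 with a median of 0.97. MSMO1, a demethylase of this pathway, rose by 2.17 (SE 0.22) from 25.3 to 51.4 CPM to 103 to 232 CPM, and INSIG1, which holds the sterol sensor in the ER, rose by 1.55. Neither gene had an overlap between treatments. The difference from the control response was positive in 22 of 24 genes (median 0.29), and 0.61 for INSIG1 (95% interval 0.11 to 1.10), which was not called.

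Few other subunits of the COPI coat were called. Of 9 subunit genes, COPB2 and COPE rose and COPG2 fell (-0.36), with a median of 0.20. Both shares are under those of all genes (27.3% higher and 25.5% lower). COPE rose by 0.48 (adjusted p 0.0365) and was not called without replicate 4, though its log2 fold change was no smaller (0.565, adjusted p 0.0812). COPA, the alpha subunit, had a log2 fold change of 0.07 (adjusted p 0.582). With the GC slope of each library as a covariate, an alternative chosen after seeing the data, 7 of the 9 were called. Of 42 other genes of Golgi and ER trafficking 25 rose and 0 fell (27.3% and 25.5% of all genes), with a median of 0.33, and 17 rose without replicate 4. SEC23B, a subunit of the COPII coat of ER export, rose by 1.14 (adjusted p 2.7e-10, SE 0.08) from 52.5 to 62.6 CPM to 109 to 139 CPM. CREB3, a transcription factor held in ER and Golgi membranes, rose by 1.02, TMED9, a cargo receptor, by 0.71 and ARF4, a small GTPase of the Golgi, by 0.68. At 4 against 4 libraries, 12 rose with shRNA 1 (17.4% of all genes), 14 with shRNA 2 (21.7%) and 7 with the control (15.4%). The control count is a share close to that of all genes. Medians were 0.36, 0.32 and 0.26, and 1 gene fell with shRNA 1, 0 with shRNA 2 and 0 with the control shRNA. Of 30 lysosome genes 12 rose, against 27.3% of all genes, and 7 fell, a share close to the 25.5% of all genes (median 0.09): CTSS, cathepsin S, rose by 2.33 (1.26 without replicate 4) and NPC1, the cholesterol exporter, by 1.47, and CTSK, cathepsin K, fell by 1.43.

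Interferon-stimulated genes were more often lower. Of 27 listed 25 were tested, of which 13 fell and 4 rose (25.5% and 27.3% of all genes), with a median of -0.53. BST2, tetherin, fell by 2.34 and IFIT1, an RNA sensor, by 1.95. OASL, IFI27, HERC5 and ISG15 rose, with log2 fold changes from 0.77 for ISG15 to 2.41 for OASL, the last at 1.02 CPM or less. The control shRNA gave 11 lower and 2 higher (median -0.73).

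The BCL2 family, which sets the threshold of apoptosis, had 7 members higher of 14 tested (16 listed), against 27.3% of all genes, and 4 lower, a share close to the 25.5% of all genes, with a median of 0.38. BCL2L1, which encodes the survival factor BCL-XL, stood at 142, 93.5, 85.7 and 101 CPM in DMSO with shRNA 1 and 137, 93.6, 89.0 and 103 CPM with shRNA 2. The bleomycin libraries held 307, 231, 225 and 191 CPM and 364, 291, 240 and 170 CPM, without overlap (log2 fold change 1.25, adjusted p 5.49e-06, SE 0.18). BCL2 itself fell by 1.87. Of the pro-apoptotic members with only a BH3 domain, PMAIP1 (NOXA) rose by 1.49, and BCL2L11 (BIM) and BMF fell by 2.1 and 2.63. MCL1, another survival factor, rose by 0.50 (adjusted p 0.0379), and was not called without replicate 4 (0.25, adjusted p 0.314). BCL2A1 rose by 3.58, and without replicate 4 had a log2 fold change of 0.30 (adjusted p 0.593).

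The fibroblast label was checked against marker genes. All 11 fibroblast markers had counts, with a summed level of 21207 to 27206 CPM in DMSO and 8946 to 20626 CPM after bleomycin. The ranges did not overlap, and 9 of the 11 markers fell and 0 rose, among them DCN, decorin (-2.31). Markers of other cell types were low in sum and did not all move one way. Epithelial markers summed to 7.60 to 14 CPM in DMSO and 5.86 to 54.6 CPM after bleomycin. Of 9 epithelial markers 4 were tested and 3 rose, NKX2-1 was at 0 in all 16 libraries, and SFTPB, SFTPC and KRT5 had at most 3 counts in any library. Endothelial markers summed to 26.6 to 35.6 CPM in DMSO and 8.68 to 24.0 CPM after bleomycin, with 2 of 4 tested higher and 2 lower. Immune markers summed to 0.333 to 1.03 CPM in DMSO and 2.25 to 4.00 CPM after bleomycin, and both tested (PTPRC and CD14) rose. In bulk RNA, fewer cells of a type and less RNA per cell cannot be told apart, and the part of these markers in the results above was not tested.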

How the data were processed

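The authors deposited raw read counts per gene symbol, with no normalization, in a table of 28266 symbols and 42 library columns, and the 24 IMR90 columns were used. Poly(A) RNA was made into directional libraries. The submitters' processing notes name hg38, DRAGEN, STAR 2.7.8a and DESeq2 1.32.0, while the study's methods name hg19, TopHat and HTSeq, and which of them made the table is not given in the sources used here. How multimapping or overlapping reads were counted is likewise not given.

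Counts were tested in R 4.3.3 with edgeR 4.0.16 (quasi-likelihood test, TMM, filterByExpr, 6 group means, Benjamini-Hochberg adjustment over the 14783 genes tested), with limma 3.58.1 loaded by it. The bleomycin response was the mean over both COPB2 shRNAs of bleomycin minus DMSO, and contrasts of each shRNA, of the control shRNA and of their differences came from the same fit. Log2 CPM values for the principal components used a prior count of 2, and log2 fold changes used the default of edgeR's fit. The test was checked on simulated data. Alternatives were DESeq2 1.42.0, its size factors, no filter, only the libraries compared, a block for replicate number, a fold change minimum, and leaving out replicate 4 or each library. A GC covariate and leaving out replicate 1 were added after seeing the data.

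Named genes were the 10 highest and 10 lowest log2 fold changes among genes that passed the test, did not overlap between treatments and averaged 100 counts or more in the higher one, plus CDKN1A, LMNB1, HERPUD1, COPB2 and list members, some of which are not reported here. The members, lists and tests were chosen with earlier results of these data known. Coordinates of genes came from GENCODE on GRCh37 (25055 of 28266 symbols matched), and promoters from RefSeq on GRCh38.p14. Depth was 15580424 to 23597310 counts per library. Intervals and floors from counts cover counting error only, since reads carry no molecular identifiers.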

Additional observations from a re-analysis of the deposited data

Results flagged for a closer look

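The level of 18 genes in 6 groups of 4 libraries was examined for a library far from the other 3 of its group, by Dixon's 95% criterion, and 29 of 108 groups held one. The criterion marks about 1 in 20 groups of independent, normally spread values, and genes measured in the same libraries are not independent. CSF3, CCL20, MMP3, ADH1B, WNT2 and FGF10 were among the 18 because of their fold changes here. The others were chosen with earlier results known. The count of groups therefore describes these genes and is no test. Of the 29 marks, each of 1 library for 1 gene, 18 fell on replicate 4, and 16 of those on its bleomycin libraries. In bleomycin replicate 4 with shRNA 1, shRNA 2 and the control shRNA respectively, CXCL8 stood at 9383, 4669 and 1219 CPM, IL6 at 1049, 551 and 199 CPM, CSF3 at 404, 90.6 and 25.7 CPM and CCL20 at 104, 35.5 and 10.1 CPM. In the other bleomycin libraries the highest values of these genes were 239, 49.2, 6.13 and 3.63 CPM. MMP3 at 1077 CPM, GDF15 at 3168 CPM and HERPUD1 at 190 CPM stood apart in replicate 4 of bleomycin with shRNA 1, and FGF10 at 0.717 CPM in replicate 4 of bleomycin with the control shRNA. CCL20 was detected at 0.117 CPM in replicate 4 of DMSO with the control shRNA and at 0.0553 CPM in that with shRNA 2, where the other 3 replicates were at 0, and CSF3 at 0.0526 CPM in replicate 3 of DMSO with the control shRNA. These 3 values are at or under the floor of 3 counts.

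Replicate 1 of DMSO stood apart for CDKN1A in all 3 groups, at 1004 CPM with the control shRNA, 715 CPM with shRNA 1 and 890 CPM with shRNA 2, where the other 9 DMSO libraries held 354 to 482 CPM. With the control shRNA it also stood apart for BCL2L1 at 176 CPM and HERPUD1 at 128 CPM, and with shRNA 1 for FGF10 at 10.3 CPM. Single libraries were apart for HERPUD1 at 225 CPM (bleomycin, shRNA 2, replicate 2), COPB2 at 72.9 CPM and CDKN2B at 26.1 CPM (both DMSO, shRNA 1, replicate 3) and DDIT3 at 29.6 CPM (DMSO, control shRNA, replicate 3). None of the causes was tested.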

How the results depend on the processing

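The COPB2-shRNA response called 7794 genes, and 6372 without replicate 4, 6969 without replicate 1, 7790 with DESeq2 size factors, 8021 with DESeq2, 7500 with only the libraries compared, 10172 with no filter, 10360 with the GC covariate and 7351 to 8048 with 1 library left out. Counts moved by over 1.5 times with a log2 fold change minimum of 1 (2977 with both COPB2 shRNAs, 2781 with shRNA 1, 2969 with shRNA 2 and 2437 with the control shRNA), which calls fewer genes by construction. They also moved with the GC covariate for shRNA 1 (8178), the control shRNA (7609) and the COPI coat (7 of 9), and for shRNA 2 with only its libraries (3734), where the cause was not tested. With 1 library left out the counts were 4325 to 4976 for shRNA 1, 4899 to 6361 for shRNA 2 and 3704 to 4717 for the control shRNA. DESeq2 called 9 SASP cytokines. It gave no adjusted p to 10 of the 150 named genes. Of these, CSF3, CXCL8, CXCL3, CXCL5, CXCL1, IL6 and IL11 are on the list of SASP cytokines, and IL13RA2, AREG and BCL2A1 are not. A gene without an adjusted p cannot be called, and how far this accounts for the lower count was not tested. Both difference tests called 0 genes under every alternative.

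The labels do not say what a replicate number shares, and not every pair of libraries with the same number deviated together, so the numbers were not taken as pairs. Of 60 such pairs 44 had an r over 0.1 (median 0.36, lowest -0.50, against a median of -0.09 for other numbers), and 16 of 24 libraries correlated best with their own number, a hint of shared numbers from the data and not from the design. With the replicate block 9041 genes were called in the COPB2-shRNA response, 6632 with shRNA 1, 7472 with shRNA 2 and 0 in either difference.

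The sign of CDKN2A's response, not called, was negative with no filter (-0.0243), the replicate block (-0.0051) and the GC covariate (-0.0161), and ran from -0.13 to 0.12 with 1 library left out. The LMNB1 difference from the control was 0.0035 with the replicate block, 0.13 without replicate 4 and -0.23 to 0.25 with 1 library left out, and that of CDKN1A ran from -0.25 to 0.30. Without replicate 4 of bleomycin with shRNA 1 the differences of CXCL8 and IL6 were -0.20 and -0.19, and over all libraries left out in turn they ran to 4.79 and 3.80. Of the genes named, COPE, COL4A1, MCL1, BCL2A1, CDC6, CSF1, TRIB3, COL7A1 and ACTA2 were not called without replicate 4. CDC6, MCL1 and ACTA2 were not called without replicate 1 either, COL4A1 with no filter, and COPE, COL4A1 and MCL1 with several single libraries left out. PTTG1 was not called without replicate 2 of either treatment of shRNA 2 (adjusted p 0.0653 and 0.0508), and BCL2A1 without replicate 4 of bleomycin with shRNA 1 (adjusted p 0.104).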

Other observations

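More genes were detected after bleomycin. In COPB2-depleted cells a count was found for 19258 to 19985 genes (median 19808.5) in the bleomycin libraries and 16818 to 17706 (median 17125) in the DMSO libraries, a mean difference of 2601 (two-sided exact permutation test over 12870 splits, p 0.000155, the smallest it can give). The total counts did not favour the bleomycin libraries, at 15580424 to 19409645 against 16199276 to 23597310. With the control shRNA the ranges were 19212 to 20161 and 16691 to 17250 genes.

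At the extreme were 54 genes, 52 of them protein coding, with 0 counts in all 8 DMSO libraries and at least 3 counts in all 8 bleomycin libraries, and 0 genes showed the reverse. Since they were picked by these counts, no test was made. In the control-shRNA libraries 31 of the 54 met the same rule. There, 52 were detected in all bleomycin libraries, and 37 had 0 counts in the DMSO libraries. CSF3 led the list. The next by mean count over the bleomycin libraries were CTNNA2, a neuronal catenin (31.3 counts), PTPRT, a receptor phosphatase (20.1), NOS1, neuronal nitric oxide synthase (20.1), TNR, tenascin R (18.5) and CLDN18, a claudin (18.4). CTNNA2 had 16 to 47 counts per bleomycin library with the COPB2 shRNAs. Genes known from leukocytes were among the 54, such as ITGB2, an integrin of leukocytes (mean 11.1 counts), LCP1, plastin (9.75), and NCKAP1L (9.5), and so were genes of neurons such as DRD2, a dopamine receptor (13.8), and RBFOX1, a splicing factor (10.6). These are low levels, and genes were named here after their values were seen.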
